A study of Mus musculus with 12 samples.

Results

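The 7 noncoding RNA genes were taken by name from the gene table: Rn7s1 and Rn7s2 (7SL RNA), Rn7sk (7SK RNA), Rmrp (the RNA of RNase MRP), Rpph1 (the RNA of RNase P), Malat1 and Neat1. They were chosen by their measured shares of these same libraries and by how those shares move together, with earlier results of these data known, so shares, levels and joint movement are given as descriptions. Of the 7 genes, 6 have a row among the 55679 genes of the table, and Rn7s2 has none. The 12 libraries are strand-specific total RNA libraries of the lung and heart of 6 male mice aged 9 to 13 weeks on the 129S6/SvEvTac background. There were 3 WT mice and 3 KO mice. KO mice are homozygous for an Adam19-tdTomato allele in which exons 6 and 7 of Adam19 are replaced, in all cells of the body. A replicate number of a genotype names 1 mouse, which gave both organs. The identifiers of WT mice begin differently from those of KO mice, so that whatever these beginnings stand for and the genotype cannot be told apart.

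Most of these RNAs are parts of particles made of RNA and protein. 7SL RNA is the backbone of the signal recognition particle, which brings ribosomes making secreted and membrane proteins to the endoplasmic reticulum. 7SK RNA holds the elongation kinase P-TEFb inactive together with HEXIM proteins. Rpph1 is the catalytic RNA of RNase P, which trims the 5′ ends of tRNA precursors, and Rmrp is its relative in RNase MRP, which cuts ribosomal RNA precursors. The RNAs of these 4 machines are short and made by RNA polymerase III. Malat1 and Neat1 are long nuclear RNAs made by RNA polymerase II. Malat1 lies in nuclear speckles, where splicing factors gather, and Neat1 builds paraspeckles. RNase P also acts on both of them, since it cuts their precursors at a tRNA-like fold to make the mature 3′ ends.

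The transcript of Rn7s2, 300 bases long, is identical to that of Rn7s1 in GENCODE vM39 on GRCm39, the source of all sequences and positions given here. Among 1047 groups of identical transcripts in the annotation, 785 have exactly 1 member in the deposited transcript table and 135 have more than 1, so the values named Rn7s1 may stand for both genes. The lncRNA gene Gm59647 spans all 300 bases of Rn7s1 on the same strand.

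Rn7sk lies at chr9:78082585-78082915 on the minus strand. Its first 110 bases are shown because they form the hairpin that binds HEXIM, which recognises paired GAUC stretches. Capitals mark each GATC, the DNA letters of that stretch.
Rn7sk: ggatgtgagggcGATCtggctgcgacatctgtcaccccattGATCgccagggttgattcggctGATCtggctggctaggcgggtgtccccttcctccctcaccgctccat
All 3 GATC of the 331-base transcript lie in this stretch. At least 3 in the first 110 bases were found in 1499 of the 478196 annotated transcripts of that length or more (0.313%). Rmrp lies at chr4:43492788-43493058 on the minus strand and overlaps Ccdc107, a gene on the opposite strand, by 159 bases. Rpph1 lies at chr14:51044906-51045224 on the minus strand, inside Ccnb1ip1 on the same strand, and overlaps Parp2 on the opposite strand by 277 bases. For these overlaps the libraries keep the strand, but reads of Rpph1 and of Ccnb1ip1 cannot be told apart by strand.

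Malat1 lies at chr19:5845717-5853602 and Neat1 at chr19:5874736-5897132, both on the minus strand. The 100 bases up to the end of a run that both RNAs share are shown because RNase P makes their 3′ ends there. Capitals mark the run AAAAGCAAAA, taken from the last 10 bases of the long Neat1 transcript. The T-rich and A-rich stretches beside it belong to the triple helix known to protect both ends.
Malat1: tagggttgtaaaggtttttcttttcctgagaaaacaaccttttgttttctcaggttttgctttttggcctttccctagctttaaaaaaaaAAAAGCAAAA
Neat1: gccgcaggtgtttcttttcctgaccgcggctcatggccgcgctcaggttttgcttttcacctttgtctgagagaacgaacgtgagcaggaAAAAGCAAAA
The run stands at positions 7584 to 7593 of the 7886-base Malat1 transcript, with 293 annotated bases after it, and at 22388 to 22397, the very end, of the 22397-base Neat1 transcript. Neat1 also holds it at 854 to 863 and at 1599 to 1608. It was found in 7428 of 481956 annotated transcripts (1.54%) and at the very end of 27 of them (0.0056%). Malat1 overlaps the antisense genes Gm37376 and Gm59785, and Neat1 overlaps the antisense gene Frmd8os.

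The 100 bases before the annotated starts are shown because promoter elements of the short RNAs lie there. The part of these elements in the levels of the RNAs was not tested. Rn7sk, Rmrp and Rpph1 have their promoter elements before the start, as genes of the U6 type do, whereas 7SL RNA genes also use elements inside the transcript. Capitals mark TATA between bases −40 and −16 and TGACGTCA, a motif bound by ATF and CREB factors, each sought as written. The windows are in GRCm39 and read along the strand of the gene: chr9:78082916-78083015, chr4:43493059-43493158 and chr14:51045225-51045324, all minus, then chr12:69205969-69206068, plus, and chr12:69408256-69408355, minus.
Rn7sk: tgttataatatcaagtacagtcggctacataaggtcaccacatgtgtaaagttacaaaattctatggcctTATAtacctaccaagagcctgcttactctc
Rmrp: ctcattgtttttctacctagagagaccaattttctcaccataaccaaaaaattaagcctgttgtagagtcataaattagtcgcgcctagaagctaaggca
Rpph1: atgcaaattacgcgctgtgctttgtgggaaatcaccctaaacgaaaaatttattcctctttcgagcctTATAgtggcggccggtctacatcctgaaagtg
Rn7s1: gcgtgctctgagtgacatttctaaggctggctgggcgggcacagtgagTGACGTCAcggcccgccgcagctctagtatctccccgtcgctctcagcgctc
Rn7s2: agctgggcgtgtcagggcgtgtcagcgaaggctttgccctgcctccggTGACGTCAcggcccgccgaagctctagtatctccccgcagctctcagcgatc
TATA began at base −30 of Rn7sk and at base −32 of Rpph1, and those letters were not in this window of Rmrp. A TATA in the same window was found before 4947 of 78285 annotated genes (6.32%). TGACGTCA began at base −52 of both 7SL genes and was found in the 100 bases before 485 genes (0.62%). The motif reads alike on both strands.

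The libraries held 17674800 to 35862900 estimated counts. The targeted gene, Adam19, had a log2 change of −5.51 ± 0.33 SE in KO lungs (adjusted p = 0.000186, limma) and of −3.14 ± 0.31 (adjusted p = 0.00558, limma) in KO hearts. The tissues bore out their labels: the summed log2 level of 10 lung epithelial markers was 18.98 to 19.25 in the lung and 12.54 to 13.24 in the heart, and that of 10 heart muscle markers was 21.01 to 21.26 in the heart and 13.47 to 14.71 in the lung, with no marker at 0 in all libraries of a group. One library stood apart in its short RNAs. Lung WT replicate 3 had the highest level of Rn7sk, Rmrp, Rpph1, the summed snRNA genes (0.823% of the library) and the summed snoRNA genes (0.583%) of the 6 lungs, and the lowest of Rn7s1 and of the 2 mitochondrial ribosomal RNAs (0.0973%). Fold changes of the short RNAs and their ranges in the lung are given with and without it.

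The members took a large and uneven part of the libraries. After the values were taken off the log2 scale, the 6 measured RNAs made up 39.6%, 33.04% and 11.97% of the 3 lung WT libraries and 15.3%, 8.54% and 23.4% of the 3 lung KO libraries. In the heart they made up 5.65%, 3.47% and 5.99% of the WT libraries and 7.34%, 5.58% and 13.5% of the KO libraries. The mean over 6 libraries was 22.0% ± 12.3 (SD) in the lung and 6.91% ± 3.44 in the heart. The ranges overlapped, since lung KO replicate 2 and lung WT replicate 3 lay below heart KO replicate 3. Leaving the members out raised the share of every other gene 1.09- to 1.65-fold in the lung and 1.04- to 1.16-fold in the heart. With the copies of 7SL RNA counted as well, lung WT replicate 3 rose to 16.5%, and the others moved by less. Counting error is small at this depth: the 95% Wilson interval of a share was at most 0.0196 percentage points to either side, which covers counting error only.

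**Figure D1:**
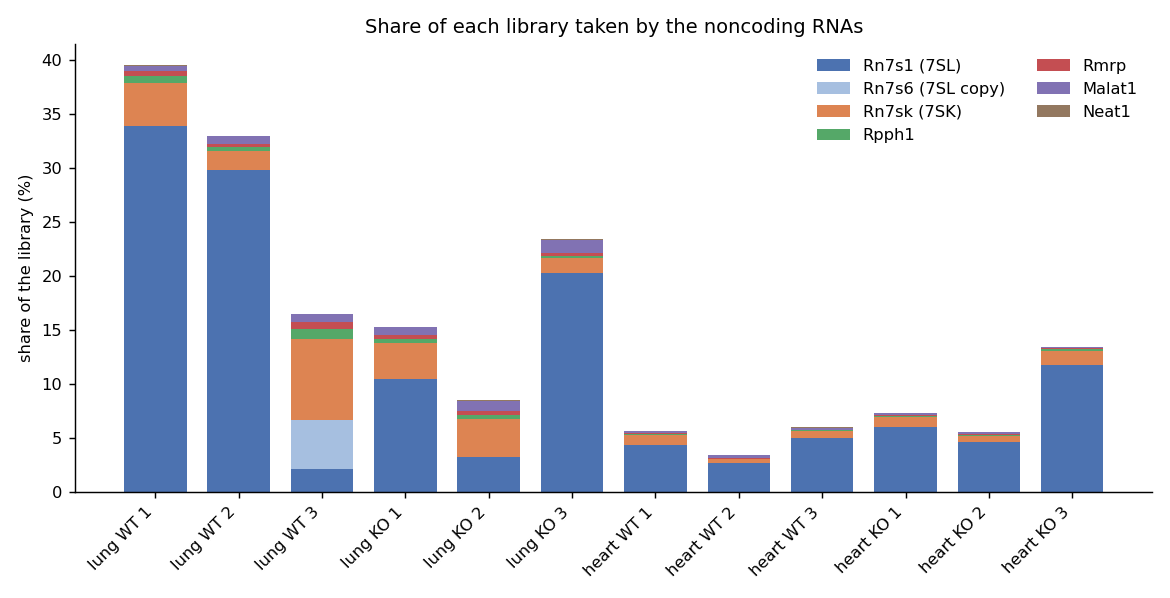
Stacked bars of the share (%) of each of the 12 libraries taken by the 6 measured RNAs and the 7SL copy Rn7s6, 1 bar for a library. The bars reach 39.6% in lung WT replicate 1 and 3.47% in heart WT replicate 2, and in lung WT replicate 3 the Rn7s6 part (4.55%) is larger than the Rn7s1 part (2.10%).

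7SL RNA, named Rn7s1, took the largest share of any member in 10 of 12 libraries, the exceptions being lung WT replicate 3 and lung KO replicate 2, where Rn7sk took more. It took 34.0%, 29.9% and 2.10% of the lung WT libraries and 10.46%, 3.22% and 20.3% of the lung KO libraries. In the heart it took 4.32%, 2.70% and 4.999% in WT and 6.04%, 4.63% and 11.8% in KO. The highest and the lowest share of Rn7s1 were both in the lung, and the highest heart was KO replicate 3. On the log2 scale of the gene table the lung values were 23.11, 22.84 and 18.81 in WT and 21.00, 19.18 and 22.09 in KO, a range of 19.6-fold (15.2-fold without lung WT replicate 3), against a range of 4.13-fold in the heart. Without 7SL RNA, in the members and in the total, the other 5 RNAs took 6.39% ± 2.58 (SD, n = 6) of the lung libraries and 1.25% ± 0.403 of the heart libraries, and every lung (3.90% or more) was above every heart (1.93% or less). Shares of genes in general were higher in the lung: scaled to the library total, the median log2 change of all genes was 0.88. How many genes had every lung share above every heart share was not computed, here or for the single RNAs below.

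The copy Rn7s6 was listed far below Rn7s1 in all libraries but lung WT replicate 3. Its log2 values were 8.05, 7.43 and 19.93 in the lung WT libraries, 5.95, 5.36 and 7.37 in lung KO, 5.53, 5.81 and 6.29 in heart WT and 5.61, 5.90 and 6.83 in heart KO. In lung WT replicate 3 it alone took 4.55% of the library, more than Rn7s1 there. The 8 copies in the table made up 68.5% of the 7SL sum in that library and between 0.00842% and 0.0189% in the other 11. Added to Rn7s1 they brought 7SL RNA in lung WT replicate 3 to a log2 level of 20.48 and a share of 6.65%, which was then above lung KO replicate 2 (3.23%). The lowest 7SL share of the 12 was then that of heart WT replicate 2 (2.70%). Since the transcripts of both genes share sequence, how the reads were divided there rests on the estimate the authors' quantifier made. Copies were minor for the other short RNAs: 17 copies of 7SK RNA made up at most 0.141% of its sum, and the 2 copies of RNase P RNA, Rprl3 and Rprl2, made up 2.25% to 4.94%.

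7SK RNA was the next most abundant. Rn7sk took 3.94%, 1.74% and 7.52% of the lung WT libraries and 3.39%, 3.53% and 1.35% of the lung KO libraries. In the heart it took 0.998%, 0.373% and 0.685% in WT and 0.892%, 0.603% and 1.32% in KO. Lung WT replicate 3 was the highest of the 12, and the lowest lung lay barely above the highest heart. On the log2 scale the values were 20.00, 18.74 and 20.66 in lung WT, 19.38, 19.31 and 18.18 in lung KO, 18.27, 17.001 and 17.73 in heart WT and 17.99, 17.64 and 18.74 in heart KO, so that lung and heart overlapped on this scale. The lung range was 5.56-fold (3.52-fold without lung WT replicate 3) and the heart range 3.34-fold.

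The RNAs of the 2 related endonucleases were lower. Rmrp took 0.428%, 0.315% and 0.675% of the lung WT libraries and 0.323%, 0.413% and 0.336% of the lung KO libraries, against 0.0435%, 0.0173% and 0.0428% in heart WT and 0.0585%, 0.0343% and 0.0703% in heart KO. Every lung was above every heart for this RNA. Rpph1 took 0.667%, 0.361% and 0.943% in lung WT and 0.357%, 0.337% and 0.177% in lung KO, against 0.0661%, 0.0347% and 0.0601% in heart WT and 0.0961%, 0.0603% and 0.154% in heart KO. The lung range on the log2 scale was 2.28-fold for Rmrp and 5.33-fold for Rpph1, or 1.75-fold and 4.56-fold without lung WT replicate 3. The Rpph1 shares were also all higher in the lung, although its log2 value in lung KO replicate 3 (15.25) lay below that in heart KO replicate 3 (15.65).

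The balance of the 2 endonuclease RNAs is given as a ratio for each library. The ratio of Rpph1 to Rmrp was 1.56, 1.15 and 1.40 in lung WT and 1.11, 0.815 and 0.526 in lung KO. It was 1.52, 2.01 and 1.40 in heart WT and 1.64, 1.76 and 2.19 in heart KO. All lung KO ratios lay below all lung WT ratios, by little for KO replicate 1 against WT replicate 2, whereas the heart groups overlapped. Of the single genes tested, 6.4% had all KO lungs below all WT lungs, and the like share among ratios was not computed. The ratio was given after the values of both RNAs were seen, and it was not tested. RNase MRP RNA has 2 annotated forms here, and the 271-base form held 89.0% ± 5.68 (SD, n = 6) of its estimated counts in the lung and 90.6% ± 3.06 in the heart. The 281-base form was highest in lung WT replicate 3, at 20.6%.

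Of the long nuclear RNAs, Malat1 took the larger share. It made up 0.503%, 0.707% and 0.697% of the lung WT libraries and 0.717%, 0.970% and 1.18% of the lung KO libraries. In the heart it took 0.211%, 0.333% and 0.189% in WT and 0.229%, 0.229% and 0.149% in KO. Every lung was above every heart. From summed transcript counts, Malat1 took 0.526%, 0.765% and 0.635% of the lung WT libraries and 0.685%, 0.767% and 0.981% of the lung KO libraries. Its log2 values were 17.03, 17.44 and 17.23 in lung WT, 17.14, 17.45 and 17.98 in lung KO, 16.03, 16.84 and 15.87 in heart WT and 16.03, 16.24 and 15.59 in heart KO, with ranges of 1.93-fold in the lung and 2.37-fold in the heart.

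Neat1 was the least abundant member. It took 0.0484%, 0.0589% and 0.0389% of the lung WT libraries and 0.0505%, 0.0633% and 0.0657% of the lung KO libraries, against 0.0141%, 0.0147% and 0.0140% in heart WT and 0.0173%, 0.0187% and 0.0102% in heart KO. Here too the tissues did not overlap. The ranges were 1.73-fold in the lung and 1.87-fold in the heart, and the ratio of Malat1 to Neat1 lay between 10.4 and 22.6 in all 12 libraries.

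**Figure D2:**
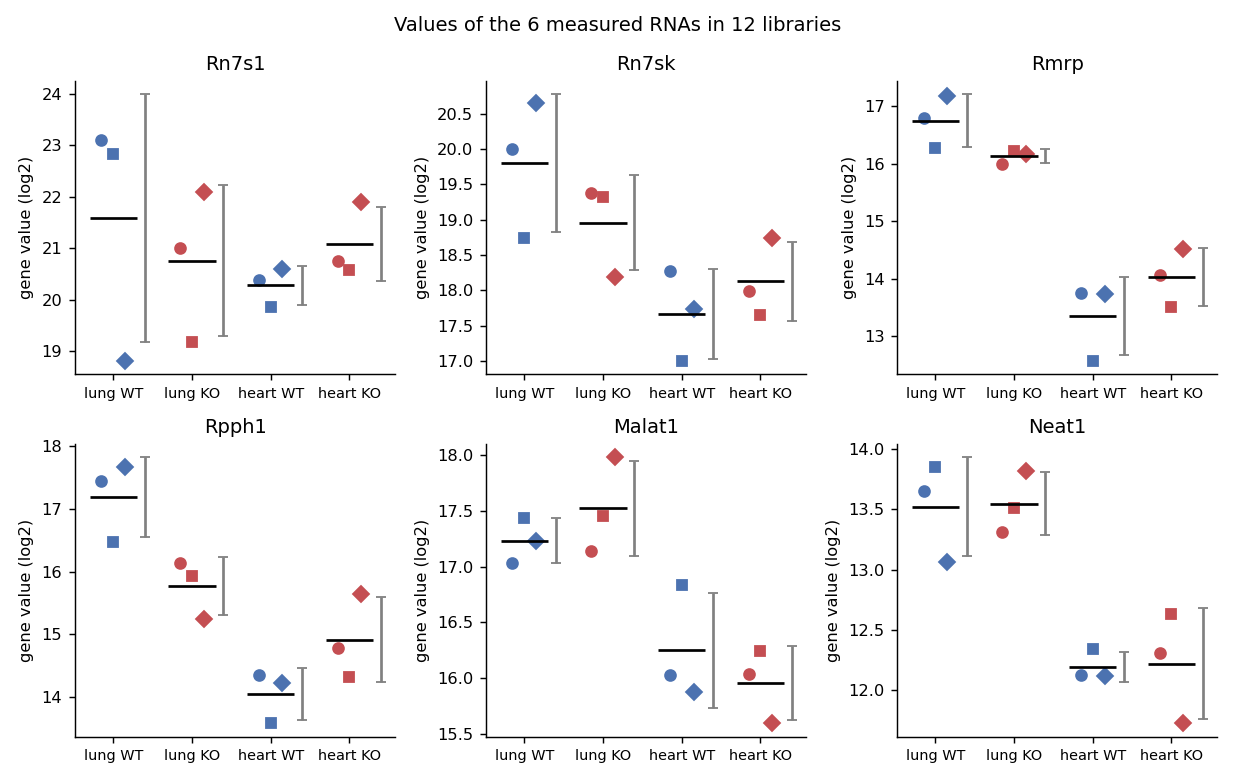
Deposited log2 gene values of the 6 measured RNAs in the 12 libraries, 1 panel for an RNA with its own axis, with WT in blue and KO in red and circle, square and diamond for replicates 1, 2 and 3; black lines are group means and gray bars run 1 SD to either side (n = 3). Rmrp, Malat1 and Neat1 have all lung points above all heart points, while Rn7s1 spreads from 18.81 to 23.11 within lung WT.

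Levels of different RNAs can be compared only per length. Estimated counts were divided by annotated transcript length and scaled to 1 common total for each library, the scale known as TPM. In these units the mean level of Rn7s1 was 449721 ± 284327 (SD, n = 6) in the lung and 266409 ± 102411 in the heart, and that of Rn7sk was 110950 ± 77728 and 34654 ± 10529. The 2 endonuclease RNAs followed, with 15373 ± 7281 for Rmrp and 14355 ± 8950 for Rpph1 in the lung, and 2316 ± 763 and 3432 ± 1324 in the heart. They did not differ beyond their spread in the lung, where Rmrp was above Rpph1 in 4 of 6 libraries. Malat1 came next, at 2312 ± 1075 and 983 ± 333, and Neat1 was last, at 116 ± 47.7 and 46.4 ± 12.1. This order held in all libraries except 2, apart from the exchange of Rmrp and Rpph1: Rn7sk was above Rn7s1 in lung WT replicate 3, and Malat1 was above Rmrp in heart WT replicate 2. With transcripts this short, division by annotated rather than by effective length is a rough scale.

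Over all 6 libraries of a tissue the short RNAs went together in the heart and only in part in the lung. In the heart all 4 short RNAs were highest in KO replicate 3 and lowest in WT replicate 2, with correlations of log2 values between 0.85 and 0.97 (Pearson, n = 6 libraries, which share their depth and scaling). In the lung Rn7sk, Rmrp and Rpph1 went together (Rn7sk with Rpph1 0.89, Rn7sk with Rmrp 0.81, Rmrp with Rpph1 0.87), while Rn7s1 stood at −0.48 with Rn7sk, −0.26 with Rmrp and −0.11 with Rpph1. With its copies summed, 7SL RNA stood at −0.26 with Rn7sk. These values rest on few libraries, and the difference between the tissues does not hold without them. Without the 2 libraries farthest from the median of the first RNA, Rn7s1 in the lung turned to 0.83 with Rmrp, 0.57 with Rpph1 and 0.16 with Rn7sk, whereas Rn7sk with Rpph1 was 0.61, Rn7sk with Rmrp 0.63 and Rmrp with Rpph1 0.07. In the heart the same step took Rn7s1 with Rn7sk to −0.47, with Rmrp to 0.51 and with Rpph1 to 0.63. It took Rn7sk with Rmrp to 0.49 and with Rpph1 to 0.33, and left Rmrp with Rpph1 at 0.83.

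The ratio of 7SL to 7SK RNA gives their balance in each library. With the copies summed it was 8.63, 17.2 and 0.884 in lung WT and 3.09, 0.913 and 15.03 in lung KO, whereas the heart libraries lay between 4.33 and 8.93. The lungs thus ran both above and below the whole range of the hearts. The ratio of Rn7sk to Rmrp was 4.02 to 11.1 in the lung libraries, below all heart libraries, which ran from 15.2 to 22.9. Rmrp by itself had all lungs above all hearts, as had 34.8% of the genes tested. The like share among ratios was not computed. These ratios were given after the values were seen, and they were not tested.

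Malat1 in the heart had correlations of −0.85 to −0.96 with the short RNAs, and it was highest in WT replicate 2 and lowest in KO replicate 3, where the short RNAs were lowest and highest. Those correlations rest on few libraries: without the 2 libraries farthest from the median of the short RNA they were −0.02 with Rn7s1, −0.21 with Rn7sk, −0.47 with Rmrp and 0.10 with Rpph1. In the lung Malat1 stood at −0.79 with Rn7sk, −0.77 with Rpph1, −0.41 with Rmrp and 0.07 with Rn7s1, and without the 2 farthest at −0.81, −0.80, 0.47 and −0.05. Malat1 and Neat1 correlated at 0.67 in the heart and 0.53 in the lung. The 2 mitochondrial ribosomal RNAs took 8.18% of heart WT replicate 2 and 1.45% of heart KO replicate 3. Their correlations differed between the tissues (n = 6 each). With Rn7s1 they stood at 0.92 in the lung and −0.82 in the heart, and with Malat1 at 0.24 and 0.89. Without the 2 libraries farthest from the median of Rn7s1 or Malat1, these were 0.70, −0.52, 0.18 and 0.69 in the same order. Their part in these patterns was not tested. Because every value is relative to the others in its library, opposite movement of abundant RNAs and scaling cannot be told apart.

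**Figure D3:**
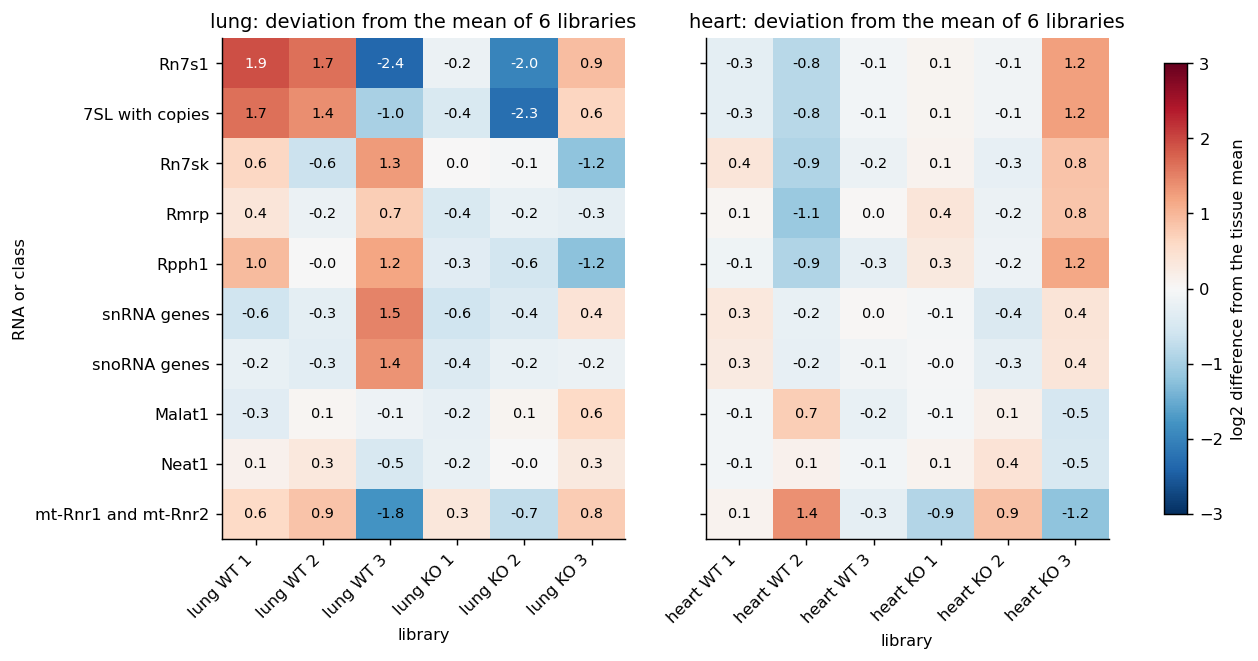
Heat map of the log2 difference of each RNA or class from the mean of the 6 lung (left) or 6 heart (right) libraries, red above and blue below the mean. Lung WT replicate 3 is low for Rn7s1 and mitochondrial ribosomal RNA and high for Rn7sk, Rmrp, Rpph1, snRNA and snoRNA genes, and heart KO replicate 3 is high for all 4 short RNAs.

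By the deviations from the 4 group means over 12 libraries, the non-member genes most like the 7SL sum among 12182 genes were Gsg1l (0.94), Bud13 (0.92), Eya2, Dmac2 and Dand5 (0.90 each, Pearson). Rmrp and Rpph1 stood at 0.01 and −0.14 by the same measure. The genes most like Malat1 were Gm37320 (0.96), Gm26621, Asxl2 and Luc7l2 (0.95 each) and Ifi203-ps (0.94). Rn7sk stood at 0.95 with Rpph1 (12th of the genes, led by Fbxo4 at 0.98) and at 0.76 with Rmrp (899th), −0.76 with Malat1 and −0.86 with Neat1. These are descriptions of 12 libraries that share tissue and scaling.

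The lung and heart of the same mice were compared with limma in 1 model over 17666 genes. A gene was called where its adjusted p (Benjamini-Hochberg) was below 0.05, its change at least 1.5-fold and its largest group mean at least 6. By this rule 51.3% of the genes tested were called, 5326 higher and 3744 lower in the lung. Of the 6 members 5 were called, all higher in the lung. The members were chosen with their levels in these libraries known, so that count is a description. The log2 fold change was largest for Rmrp (2.75 ± 0.25 SE), followed by Rpph1 (1.995 ± 0.28), Rn7sk (1.48 ± 0.42), Neat1 (1.32 ± 0.17) and Malat1 (1.27 ± 0.23). Rn7s1 (0.49 ± 0.83, adjusted p = 0.601, limma) was not called, nor was it with its copies summed (0.77, adjusted p = 0.34). Rmrp, Malat1 and Neat1 had all 6 lungs above all 6 hearts, as had 34.8% of the genes tested. In whole organs a difference of this kind and a difference in the cells that make up the organ, or in RNA per cell, cannot be told apart.

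The size of these differences depends on the scaling, and the direction of the 5 called members did not change under any alternative run. The median of all genes was 0.31 higher in the lung with the deposited values, 0.08 with TMM, 0.88 with the library total and 1.17 with the total without the members. Less the median of all genes, Rmrp stood at 2.44, Rpph1 at 1.69, Rn7sk at 1.17, Neat1 at 1.02, Malat1 at 0.97 and Rn7s1 at 0.19. Over all 23 alternatives the same 5 members were called, Rmrp between 2.54 and 3.599 and Rn7sk between 1.27 and 2.33. Rn7s1, not called, moved with single libraries: it was at 1.19 without lung WT replicate 3, 0.89 without lung KO replicate 2, 0.11 without lung WT replicate 1, 0.18 without lung WT replicate 2 and 0.16 without lung KO replicate 3. Without lung WT replicate 3, Rn7sk was at 1.27, Rmrp at 2.64 and Rpph1 at 1.88. Of all genes called, 58.7% were higher in the lung with the deposited values, 49.4% with TMM, 77.0% with the library total and 82.6% with the total without the members.

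**Figure D4:**
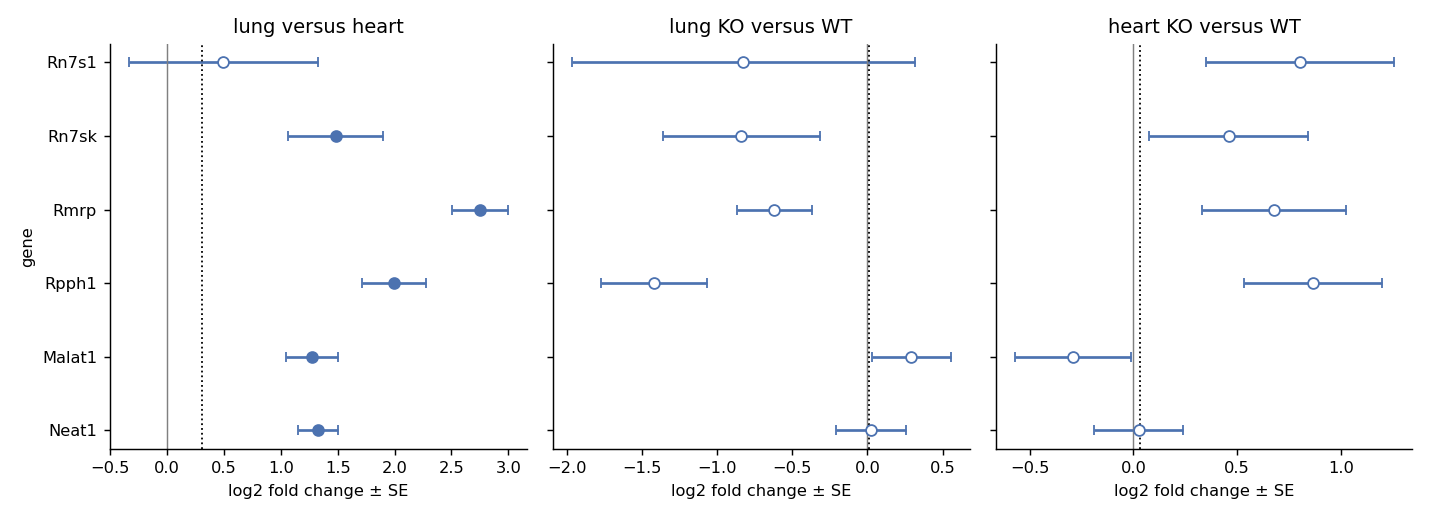
Log2 fold changes (points) with 1 SE to either side (bars) of the 6 RNAs in lung versus heart, lung KO versus WT and heart KO versus WT, with filled points for genes called by limma and a dotted line at the median of all genes tested. Only in lung versus heart are points filled, for the 5 RNAs other than Rn7s1.

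Over all genes tested, 30.1% were called higher and 21.2% lower in the lung, and the counts of the lists below stand beside those shares. With the deposited values, called proteins that bind 7SL RNA and the RNase P and MRP RNAs were lower in the lung, a direction that depends on the scaling. Of 9 proteins of the signal recognition particle and its receptor tested, 4 were lower in the lung and none higher: Srp68 (−1.23 ± 0.12), Srp19 (−1.11 ± 0.15), Srp54b (−0.76) and Srp9 (−0.64), with a list median of −0.43 against 0.31 for all genes. Of 12 RNase P and RNase MRP proteins, 5 were lower and none higher: Rpp40 (−0.92 ± 0.27), Rpp21 (−0.73 ± 0.12), Pop5, Pop7 and Rpp25l, with a median of −0.57. Under the library total 1 of the first list was higher and 1 lower, and 3 of the second higher and none lower. Under the total without the members these counts were 2 and 0, and 5 and 0. Less the median of all genes, the list medians stayed between −0.59 and −0.88 for the first and between −0.67 and −0.88 for the second over the alternatives that kept all 12 libraries.

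Partners of 7SK RNA went both ways. Larp7, which binds the 3′ end of 7SK RNA and keeps it stable, was lower in the lung (−1.05 ± 0.10), whereas the cyclins Ccnt2 (0.66 ± 0.09) and Ccnt1 (0.61) and the kinase Cdk9 (0.59), which form P-TEFb, were higher, and 4 of 9 genes were called in all. Under TMM none of these 9 was higher and 2 were lower. Under the library total 4 were higher and none lower, and likewise under the total without the members. Of 31 subunits and factors of RNA polymerase III, 2 were higher, Tbp (1.098 ± 0.21) and Polr3f (0.81 ± 0.11), and 4 lower, Gtf3c6, Polr3c, Maf1 and Polr3d, of which Maf1 is a repressor of this polymerase. The list median was −0.05, and under TMM none was higher and 8 were lower. Under the library total 16 were higher, and under the total without the members 22, with none lower under either.

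The proteins of the bodies that Malat1 and Neat1 belong to were counted in the same way. Of 14 nuclear speckle proteins, 6 were higher, led by the splicing factor Luc7l3 (1.09 ± 0.11), and 1, Rnps1 (−0.90 ± 0.09), was lower, with a median of 0.53. Of 15 paraspeckle proteins, Cpsf6 (0.69 ± 0.09) and Sfpq (0.64 ± 0.12) were higher and none lower, with a median of 0.28, close to the 0.31 of all genes. Under TMM the first list had 2 higher and 1 lower, and the second none higher and 2 lower. Under the library total 11 of the first and 9 of the second were higher. Under the total without the members 12 of each were higher, and none was lower under either of these totals.

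Among other structured small RNAs and long noncoding RNAs, more were higher than lower in the lung. The list of 36 small RNAs holds mostly U, Y, snoRNA and scaRNA kinds, and also the 7SL copy Rn7s6. Of these, 26 have a row and 20 were tested. With the deposited values 11 were higher and none lower, with a median of 2.21. With the 7SL copies summed, 19 were tested, 11 were higher and none lower, with a median of 2.13. The leading ones were Snord3a, the U3 RNA of ribosomal RNA processing (4.97 ± 0.46), and Snord17 (3.80 ± 0.32). Under TMM 10 of 19 were higher and none lower. Of 25 other long noncoding RNAs tested, 13 were higher and 4 lower, with Snhg11 (5.07 ± 0.48) and the imprinted RNA H19 (−2.54 ± 0.44) at the ends and a median of 0.78. Immune cell markers were counted as well. Without a filter on low values, 6 of 8 neutrophil, 8 of 10 lymphocyte and 7 of 8 macrophage markers were higher in the lung. The other macrophage marker, 1 gene, was lower. The main filter, which values in the lung alone can pass, kept 6 of the neutrophil markers. With at least 10 in every library, 0 neutrophil and 0 lymphocyte markers were left, and 4 of 5 macrophage markers were higher. These marker counts are thus descriptions. The part of the cell mix in the members' levels was not tested.

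Between genotypes no member was called. In the lung 0.0665% of 16551 genes were called, 11 in all, and none of the 6 members (2 at an unadjusted p under 0.05, as 5.93% of all genes, and none by limma-voom). The log2 changes of the short RNAs were −0.83 ± 1.14 for Rn7s1 (adjusted p = 0.900), −0.84 ± 0.52 for Rn7sk (0.841), −0.62 ± 0.25 for Rmrp (0.809) and −1.42 ± 0.35 for Rpph1 (0.783). Malat1 was at 0.29 ± 0.26 and Neat1 at 0.03 ± 0.23. All 3 KO lungs were below all 3 WT lungs for Rmrp and Rpph1, as they were for 6.4% of the genes tested, and no member had all KO lungs above, as 6.41% had. Single libraries moved these values. Without lung WT replicate 3 Rn7s1 was at −2.21, Rn7sk at −0.41, Rmrp at −0.40 and Rpph1 at −1.18. Rn7s1 came to −0.04 without lung KO replicate 2, −0.07 without lung WT replicate 1, −0.20 without lung WT replicate 2 and −1.49 without lung KO replicate 3. Rn7sk came to −1.37 without lung WT replicate 2 and −0.45 without lung KO replicate 3. Malat1 came to 0.06 without lung KO replicate 3. On summed transcript counts with TMM it came to 0.05, while Rn7s1 (−0.82) and Rn7sk (−0.83) hardly moved. Neat1 came to 0.42 under the library total. With the copies summed, 7SL RNA was at −1.38 ± 0.86 (adjusted p = 0.841, limma).

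In the heart 0.085% of 15303 genes were called, 13 in all, and again none of the members (1 at an unadjusted p under 0.05, as 7.46% of all genes, none by limma-voom). Here the short RNAs had positive log2 changes, 0.80 ± 0.45 for Rn7s1 (adjusted p = 0.737), 0.46 ± 0.38 for Rn7sk, 0.68 ± 0.35 for Rmrp and 0.87 ± 0.33 for Rpph1 (adjusted p = 0.635). Malat1 was at −0.29 ± 0.28 and Neat1 at 0.03 ± 0.21. The WT and KO hearts overlapped for every member, while 5.23% of the genes tested had all KO hearts below all WT hearts and 7.82% had them all above. Without heart KO replicate 3, the highest, the short RNAs were at 0.39, 0.15, 0.44 and 0.50 in the same order, and without heart WT replicate 2, the lowest, they were at 0.59, 0.13, 0.29 and 0.63. Rn7sk came to 0.76 without heart WT replicate 1 and 0.70 without heart KO replicate 2.

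The difference of the genotype effect between lung and heart was tested in the model of all 12 libraries. Of 17666 genes 0.00566% were called, which is 1 gene, and no member was (2 at an unadjusted p under 0.05, as 7.88% of all genes, none by limma-voom). The difference was −2.29 ± 0.56 for Rpph1 (adjusted p = 0.479), −1.30 ± 0.49 for Rmrp (adjusted p = 0.599), −1.30 for Rn7sk, −1.63 ± 1.67 for Rn7s1 (−3.01 without lung WT replicate 3, −0.84 without lung KO replicate 2, −0.87 without lung WT replicate 1 and −1.003 without lung WT replicate 2), 0.58 for Malat1 and 0.00 for Neat1. Without lung WT replicate 3, Rpph1 was at −2.05, Rmrp at −1.08 and Rn7sk at −0.87. None of the proteins and RNAs in the lists was called in any genotype comparison by limma or limma-voom: 0 of 183 in the lung and 0 of 163 in the heart (15 each at an unadjusted p under 0.05), and 0 of 184 for the difference (22). In the lung the other structured small RNAs, Rn7s6 among them, had a median of −0.68 against 0.01 for all genes. This went with lung WT replicate 3, the highest lung in snRNA and snoRNA genes, and was −0.36 without it. In the heart the median was 0.21 against 0.03, and lay between −0.12 (without heart KO replicate 3) and 0.34 (without heart KO replicate 2).

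The transcript table divides Neat1 into forms. The 22397-base form, which is the one that builds paraspeckles, held 31.2%, 36.9% and 38.1% of Neat1 estimated counts in lung WT and 42.4%, 41.1% and 42.2% in lung KO. In the heart it held 46.7%, 54.3% and 45.5% in WT and 49.5%, 43.8% and 41.2% in KO. Counts of the forms were not divided by length. A longer form gives more counts per molecule, so these are not shares of Neat1 molecules. The heart was above the lung in 5 of 6 mice, the exception being KO mouse 3. The mean was 38.6% ± 4.30 (SD, n = 6) in the lung and 46.9% ± 4.59 in the heart, a paired difference of −8.20 percentage points ± 7.14. The exact paired two-sided permutation test gave p = 0.0625, where the smallest possible is 0.03125, and 0.09375 adjusted over 3 transcripts of Neat1 and Malat1. This test was chosen after the data had been seen.

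**Figure D5:**
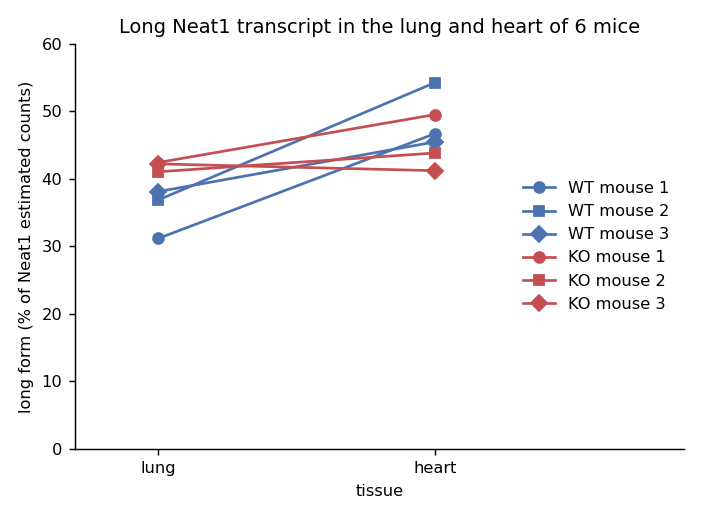
Share (%) of Neat1 estimated counts assigned to the 22397-base form in the lung and heart of each of the 6 mice, with lines joining the organs of a mouse, WT in blue and KO in red. The line rises from lung to heart in 5 mice and falls slightly in KO mouse 3, from 42.2% to 41.2%.

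Between genotypes the long form held 35.4% ± 3.70 in WT and 41.9% ± 0.741 in KO lungs (n = 3 each), with no overlap, a difference of 6.52 points (exact permutation p = 0.1, two-sided, the smallest that 3 against 3 allow). The heart difference was −3.97 points (exact permutation p = 0.4). These p-values were not adjusted, and this comparison was not planned. Of the single genes tested, 6.4% had all KO lungs below all WT lungs and 6.41% had them all above. The like share among transcript forms was not computed. The short 3014-base form, which shares the 5′ end of the long one, held most of the rest, 60.7% in the lung and 52.5% in the heart. For Malat1 the 7886-base form held 73.3% ± 3.27 of counts in the lung and 76.1% ± 3.24 in the heart (exact paired permutation p = 0.4375, n = 6), and a 1471-base form 16.9% and 17.4%. Where forms share sequence, the division of their reads is an estimate of the quantifier.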

How the data were processed

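RNA of whole lung and heart of 6 mice was extracted with a column kit and made into strand-specific total RNA libraries. The authors trimmed the reads with cutadapt and quantified them with Salmon against GENCODE transcripts of mm39, as stated in the study's methods and the submitters' processing notes. They deposited a gene table in log2 units, log2(1 + value), and a transcript table of log2(1 + estimated count). For genes with 1 transcript and a high value, 95.7% to 98.8% of gene values in a library lay within 0.01 of the transcript value plus a constant for that library, between −0.63 and 0.80, so the authors scaled the gene table between libraries.

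Shares were computed from values taken off the log2 scale. Gene tests used limma 3.58.1 in R 4.3.3 (lmFit and eBayes with a variance trend) on the deposited gene values, with genes at a value of at least log2(1 + 10) in at least 3 libraries, Benjamini-Hochberg adjusted p under 0.05, a fold of at least 1.5 and a largest group mean of at least 6. TMM, median-of-ratios size factors, library totals and limma-voom were run on summed estimated counts of the transcripts. Single values were tested with exact two-sided permutation tests in Python 3.11.15 with scipy 1.17.1. Replicates are separate mice, and p-values measure the spread between these samples. The members and the gene lists were chosen with earlier results of these data known. In each list the genes named are those with the largest change among the called. Where 5 or fewer were called in a direction they were named, except for the other long noncoding RNAs and the cell markers. Near-identical copies had at least 85% identity over 150 bases by BLAST+ 2.17.0+. The transcript sequences of 7SL RNA and its copy are not reported here. Other sequences are from GENCODE vM39 on GRCm39, the same assembly as mm39, and 99.5% of 147907 transcripts in the table had the same identifier there.

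Replicate numbers pair the lung and heart of the same animal. The deviations of the paired libraries correlated at −0.07 to 0.14 over the 6 mice, and the fit with the mouse as a replicate block called 2 genes in place of 1 in the test of the genotype effect between tissues. The 1 gene of the main fit was not among those 2. On simulated data with 200 changed genes, the lung KO fit over 16551 genes called 33% of genes changed by 1 on the log2 scale. Of those changed by 2 it called 83%. These values were 60% and 84% for the heart KO fit over 15303 genes and 84% and 96% for the lung versus heart fit over 17666 genes. For the genotype effect between tissues, over 17666 genes, they were 17% and 83%. Calls among unchanged genes were 2, 6, 4 and 3 in the same order of fits. Values were drawn independently with each gene's own spread, and the changed genes were picked at random among those with a mean of at least 6. The rates therefore describe such genes at large and not the members, of which Rn7s1 had an SE of 1.14 in lung KO versus WT.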

Additional observations from a re-analysis of the deposited data

Results flagged for a closer look

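The genotype effect on Cyfip2 differed between lung and heart by −2.31 ± 0.26 (SE) on the log2 scale, lung minus heart (adjusted p = 0.0212, limma, 12 libraries), the 1 gene called in that test. Its log2 values were 8.78 to 9.06 in lung WT and 9.31 to 9.40 in lung KO, and 9.22 to 9.91 in heart WT and 12.01 to 12.54 in heart KO. Cyfip2 was not called with the mouse as a replicate block, where 2 genes were called, each with a positive difference. Nor was it called with the library total, which called 0 genes. Without lung WT replicate 1 or 2, lung KO replicate 1, 2 or 3, or heart KO replicate 1, 0 genes were called as well. Cyfip2 is not one of the noncoding RNAs described here.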

How the results depend on the processing

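Under the alternatives 453 member values kept direction and side of the threshold and 15 changed sign, none of them called. Called genes fell from 11 to 1 in the lung and from 13 to 7 in the heart when a value of at least 10 was asked of every library. Leaving out 1 library gave 10 to 14 called genes in the lung, 10 to 21 in the heart (21 without heart KO replicate 2) and 8962 to 9172 between tissues. For the genotype effect between tissues (1 gene), the counts were 0 to 5 without 1 library, 4 with a pseudocount of 10, 2 with the total without the members, 0 with the library total and 2 with the mouse as a replicate block, which changed no member call. The mean share of the members moved from 22.0% to 6.39% in the lung and from 6.91% to 1.25% in the heart with 7SL left out. It was 18.4% to 24.7% and 5.60% to 7.60% without 1 library. Neat1 in lung KO versus WT turned to −0.20 without lung WT replicate 3 and −0.11 without lung KO replicate 3, and was at most 0.19 without 1 library. In heart KO versus WT it turned to −0.011 (TMM), −0.085 (median-of-ratios size factors), −0.013 (library total) and −0.073 (limma-voom), and lay between −0.18 and 0.27 without 1 library, while Malat1 lay between −0.48 and 0.0037 (without heart WT replicate 2). The difference of the genotype effect on Neat1, lung minus heart, lay between −0.25 and 0.20 without 1 library. The cause of these changes was not tested. Summing Rn7s1 and Rn7s2 was not run, since Rn7s2 has no row. Summing the 7SL copies, the list medians and lung ranges without 1 library, and the mouse block in the test of the genotype effect between tissues, were chosen after seeing the data.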
